A study of Homo sapiens with 4 samples.

Results

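The genes described here are the 3 sestrins (SESN1, SESN2 and SESN3) and 7 other genes that act on or close to mTORC1, namely DDIT4, NIBAN1, DEPTOR, EIF4EBP1, TSC1, TSC2 and RHEB. They were taken from a list of 10 gene symbols, and all 10 matched an Ensembl identifier among the 58233 in the count table. All 10 are annotated as protein-coding. Poly(A) RNA of wild-type MIA PaCa-2 and PANC-1 cells, both established human pancreatic cancer cell lines, was sequenced 24 h after treatment with cannabichromene (CBC, a plant cannabinoid) or with the control that the labels call PBS and the methods a vehicle control. CBC was used at 35 μM in MIA PaCa-2 cells and at 30 μM in PANC-1 cells, per the methods, so that dose and line cannot be told apart. The methods give acetonitrile as the solvent of CBC. Whether the control held this solvent is not stated, and if it did not, CBC and solvent cannot be told apart. There were 4 groups of 1 library each, MIA PaCa-2 PBS, MIA PaCa-2 CBC, PANC-1 PBS and PANC-1 CBC.

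mTORC1 is the kinase complex that drives protein synthesis and cell growth when nutrients, energy and growth factors are at hand. The small GTPase RHEB switches it on at the lysosome, and the TSC1-TSC2 complex restrains RHEB by turning it to its inactive form. Sestrins signal a lack of leucine to the GATOR complexes and through them to the Rag GTPases, which bring mTORC1 to the lysosome. DDIT4 (REDD1) acts through the TSC complex under stress, DEPTOR binds mTOR and lowers its activity, and the EIF4EBP1 product (4E-BP1) holds back cap-dependent translation until mTORC1 phosphorylates it. NIBAN1 is a stress-inducible gene whose protein has been linked to the phosphorylation of translation regulators. RHEB itself is an activator, and it stands in the list as the switch that the TSC complex controls.

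The count totals ranged from 21742775 to 27903667 per library, at which 3 counts, the limit that a count of 0 allows, are 0.110 to 0.135 CPM. Levels are given as counts and as CPM, counts per 1000000 counts of a library size scaled by TMM (trimmed mean of M-values). The libraries held RNA of epithelial markers, here KRT7, KRT8, KRT18, KRT19, EPCAM and CDH1. Their summed level was 3476 and 2553 CPM in the PBS and CBC libraries of MIA PaCa-2 cells. It was 2045 and 1206 CPM in those of PANC-1 cells. Of the 6 markers, 3 and 4 reached 1 CPM in the MIA PaCa-2 PBS and CBC libraries, and all 6 in each PANC-1 library. EPCAM was at 0 counts in the MIA PaCa-2 PBS library and CDH1 in both MIA PaCa-2 libraries. The epithelial sum was thus lower with CBC in both lines, and its part in the results below was not tested. PTPRC, CD3E, PECAM1, DCN, LUM, INS, GCG and CPA1, markers of leukocytes, endothelium, fibroblasts, islets and acini, were at 0 counts in every library. Leukocyte markers summed to at most 1.30 CPM, endothelial ones to at most 2.20 CPM, and acinar and islet ones to at most 0.044 CPM. Fibroblast markers summed to 3.24 and 0.606 CPM in the MIA PaCa-2 libraries and, on COL1A1 alone, to 134 and 46.4 CPM in PANC-1 cells.

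SESN2, DDIT4 and NIBAN1 showed the largest differences between CBC and PBS among the members, in both cell lines. With CBC, SESN2 was 13.8-fold higher in the MIA PaCa-2 line and 12.9-fold higher in the PANC-1 line, DDIT4 12.9-fold and 6.32-fold, and NIBAN1 41.9-fold and 136-fold. EIF4EBP1 was also higher, by 2.40-fold and 1.76-fold. The remaining sestrins stood at low levels, and RHEB differed by less than its counting error in each line.

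**Figure D1:**
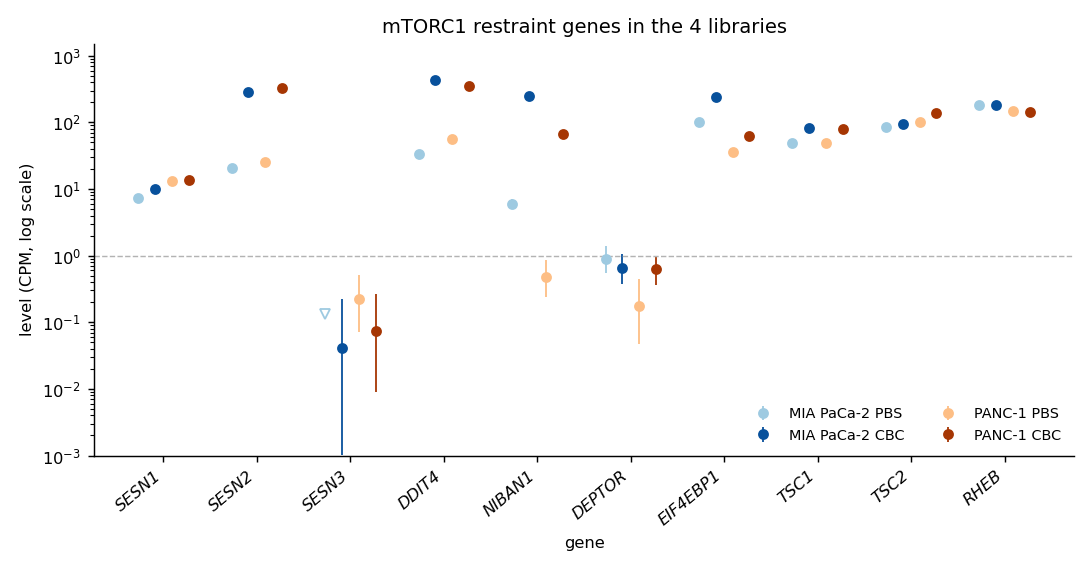
Level of each gene in the 4 libraries, in CPM on a log scale, with 95% exact Poisson intervals that cover counting error only. The open triangle marks 3 counts where a library had 0, and the dashed line marks 1 CPM. SESN2, DDIT4 and NIBAN1 stand above 60 CPM in both CBC libraries and below 60 CPM in both PBS libraries, whereas the 4 RHEB points lie between 143 and 182 CPM.

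Sestrins are stress-inducible proteins, and SESN2 is the family member best known as a leucine sensor. SESN2 (ENSG00000130766, chromosome 1, 28259518 to 28282491 of GRCh38, plus strand) had 459 counts (20.6 CPM) in the MIA PaCa-2 PBS library and 7022 counts (284 CPM) in the CBC library. In the PANC-1 line it had 568 counts (25.0 CPM) with PBS and 8813 counts (323 CPM) with CBC. Both CBC libraries stood far above both PBS libraries, and the lines were close to each other under each treatment. The log2 fold change was 3.78 in the MIA PaCa-2 line, with a 95% interval of the count ratio of 12.5-fold to 15.1-fold, and 3.69 in the PANC-1 line, with an interval of 11.9-fold to 14.1-fold. These intervals are exact binomial ones (Clopper-Pearson) and cover counting error only, since 1 library per condition gives no replicate error within a line. In bulk RNA, more cells with a transcript and more transcript per cell cannot be told apart. From the highest log2 fold change down, SESN2 stood at place 97 of the 14001 genes tested in the MIA PaCa-2 line and at place 30 of the 14091 tested in the PANC-1 line.

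SESN1, another stress-responsive sestrin, lies on chromosome 6 (ENSG00000080546, 108984309 to 109094846, minus strand). Its level was 162 counts (7.28 CPM) with PBS and 250 counts (10.1 CPM) with CBC in the MIA PaCa-2 line, a log2 fold change of 0.47 with a count ratio of 1.39-fold (interval 1.13-fold to 1.70-fold). In the PANC-1 line the values were 300 counts (13.2 CPM) and 369 counts (13.5 CPM), a log2 fold change of 0.03 with an interval of 0.876-fold to 1.20-fold. The difference thus exceeded counting error in the MIA PaCa-2 line and did not in the PANC-1 line. SESN3 (ENSG00000149212, chromosome 11, 95165513 to 95232541, minus strand), a sestrin known as a forkhead factor target, had 0 and 1 counts in the MIA PaCa-2 PBS and CBC libraries and 5 and 2 counts in those of the PANC-1 line. These counts stand at or near the limit of 3 counts, so that a difference was not detectable at this depth. SESN3 entered no comparison except in the alternative without a filter.

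The make-up of the sestrin family moved accordingly. SESN2 held 73.9% of the sestrin counts in the MIA PaCa-2 PBS library (459 of 621, exact interval 70.3% to 77.3%) and 96.5% in the CBC library (7022 of 7273, 96.1% to 97.0%). In the PANC-1 line its share was 65.1% with PBS (568 of 873, 61.8% to 68.2%) and 96.0% with CBC (8813 of 9184, 95.5% to 96.4%). With CBC, nearly all sestrin reads of either line therefore came from SESN2.

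DDIT4 (ENSG00000168209, chromosome 10, 72273919 to 72276036, plus strand) encodes REDD1, a stress-induced inhibitor of mTORC1 that works through the TSC complex. It had 757 counts (34.0 CPM) with PBS and 10851 counts (439 CPM) with CBC in the MIA PaCa-2 line. The corresponding PANC-1 libraries had 1275 counts (56.1 CPM) and 9684 counts (354 CPM). Again both CBC libraries lay above both PBS libraries, but the order of the lines differed, with the PANC-1 line higher with PBS and the MIA PaCa-2 line higher with CBC. The log2 fold change was 3.68 in the MIA PaCa-2 line (count ratio interval 12.0-fold to 13.9-fold, place 107) and 2.66 in the PANC-1 line (5.96-fold to 6.71-fold, place 92).

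NIBAN1 (ENSG00000135842, chromosome 1, 184790724 to 184974508, minus strand), once named FAM129A, showed the largest change of the members tested in each line. Its count went from 134 (6.03 CPM) to 6240 (252 CPM) in the MIA PaCa-2 line, a log2 fold change of 5.37 with a count ratio interval of 35.3-fold to 50.1-fold. From 11 counts (0.484 CPM) in the PANC-1 PBS library it went to 1800 counts (65.9 CPM) with CBC, a log2 fold change of 6.86 with an interval of 75.9-fold to 273-fold. It stood at place 26 in the MIA PaCa-2 line and at place 2 in the PANC-1 line. The wide interval in the PANC-1 line comes from the 11 counts, and there NIBAN1 reached the 1 CPM needed for testing in its CBC library only. The log2 fold change of this gene also depends on what is added to low values, being 5.49 in the PANC-1 line on the deposited CPM with a pseudocount of 1. Among NIBAN1, NIBAN2 and NIBAN3, the share of counts on NIBAN1 was 1.20% (134 of 11135, interval 1.01% to 1.42%) with PBS and 38.7% (6240 of 16105, 38.0% to 39.5%) with CBC in the MIA PaCa-2 line. In the PANC-1 line the share was 0.20% (11 of 5504, 0.0998% to 0.357%) and 18.7% (1800 of 9611, 18.0% to 19.5%). NIBAN1 thus went from a trace of its family's counts to a sizeable share in either line.

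Because SESN2, DDIT4 and NIBAN1 were higher with CBC in both lines, the 250 bases before their starts are shown, 5′ to 3′ on the gene's strand, from RefSeq promoter windows of GRCh38.p14. The windows lie at chr1:28259268-28259517 (plus strand), chr10:72273674-72273923 (plus strand) and chr1:184974509-184974758 (minus strand). A 30-base stretch of the TSC2 window, chr16:2047860-2047889 (plus strand), is added as the only member window with a CARE match. Capitals mark matches, on either strand, of the motifs described next.
SESN2: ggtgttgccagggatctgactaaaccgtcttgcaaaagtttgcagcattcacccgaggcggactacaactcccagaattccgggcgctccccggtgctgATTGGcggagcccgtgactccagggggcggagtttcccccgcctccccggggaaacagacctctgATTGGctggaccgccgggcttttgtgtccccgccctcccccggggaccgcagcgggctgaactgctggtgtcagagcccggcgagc
DDIT4: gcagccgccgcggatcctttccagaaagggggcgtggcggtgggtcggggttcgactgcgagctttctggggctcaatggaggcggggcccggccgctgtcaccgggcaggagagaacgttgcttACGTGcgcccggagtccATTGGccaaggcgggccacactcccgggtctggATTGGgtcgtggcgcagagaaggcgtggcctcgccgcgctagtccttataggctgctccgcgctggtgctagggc
NIBAN1: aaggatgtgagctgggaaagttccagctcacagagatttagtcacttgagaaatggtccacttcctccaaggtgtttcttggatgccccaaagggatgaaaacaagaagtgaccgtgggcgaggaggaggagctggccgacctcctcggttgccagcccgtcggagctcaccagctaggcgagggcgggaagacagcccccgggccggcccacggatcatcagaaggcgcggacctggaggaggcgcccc
TSC2: tgcgGCCCCGTCACGTGATGCAAggatcgc

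Of the 10 members, 8 matched the promoter table (not DEPTOR and EIF4EBP1), with 11 windows that run from 250 bases before to 50 bases after a start. The C/EBP-ATF composite motif (CARE, TGATGNAA) was in 1 of these 11 windows, that of TSC2, against 3.62% of all 35116 windows. The antioxidant response element (ARE, TGACNNNGC) was in 3 windows, of SESN1, TSC2 and RHEB, against 13.3%. The forkhead motif GTAAACA was in 0, against 3.42%. The hypoxia core ACGTG was in 3 windows, of DDIT4, TSC2 and RHEB, against 21.4%. The E-box CACGTG, which contains it, was in 1, that of TSC2, against 7.26%. In the TSC2 stretch the ARE, the E-box and the CARE matches follow each other, each overlapping the next. The CCAAT box (CCAAT), which was added after the windows were read, was in 5 windows, those of SESN1, SESN2, DDIT4 and RHEB, against 34.6%. SESN2, DDIT4, RHEB and SESN1 each held 2 matches, those of SESN1 in different windows. The NIBAN1 window held no match of any of these motifs. A match is a stretch of letters and not a measured site.

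EIF4EBP1 (ENSG00000187840, chromosome 8, 38030534 to 38060365, plus strand) encodes the translation repressor 4E-BP1. It had 2216 counts (99.6 CPM) with PBS and 5906 counts (239 CPM) with CBC in the MIA PaCa-2 line. The PANC-1 line had 816 counts (35.9 CPM) with PBS and 1723 counts (63.1 CPM) with CBC, so that the PANC-1 CBC library stood below the MIA PaCa-2 PBS library. The log2 fold change was 1.26 in the MIA PaCa-2 line (2.40-fold, 2.28-fold to 2.52-fold) and 0.81 in the PANC-1 line (1.76-fold, 1.62-fold to 1.91-fold). The difference lay past 2-fold in the MIA PaCa-2 line only, and whether the lines differ in it was not tested. EIF4EBP1 held 36.9% of the counts on EIF4EBP1, EIF4EBP2 and EIF4EBP3 with PBS (2216 of 5998, 35.7% to 38.2%) and 77.2% with CBC (5906 of 7647, 76.3% to 78.2%) in the MIA PaCa-2 line. Its share in the PANC-1 line was 20.5% (816 of 3987, 19.2% to 21.8%) and 39.4% (1723 of 4369, 38.0% to 40.9%). EIF4EBP2 had 3769 and 1720 counts in the PBS and CBC libraries of the MIA PaCa-2 line and 3167 and 2635 counts in those of the PANC-1 line. The higher share of EIF4EBP1 thus went with more EIF4EBP1 and fewer EIF4EBP2 counts. These shares are of counts and take no account of transcript length. Per kilobase of canonical transcript, EIF4EBP1 stood above EIF4EBP2 already with PBS. The levels were 120 against 22.6 CPM per kb in the MIA PaCa-2 line and 43.4 against 18.6 in the PANC-1 line.

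**Figure D2:**
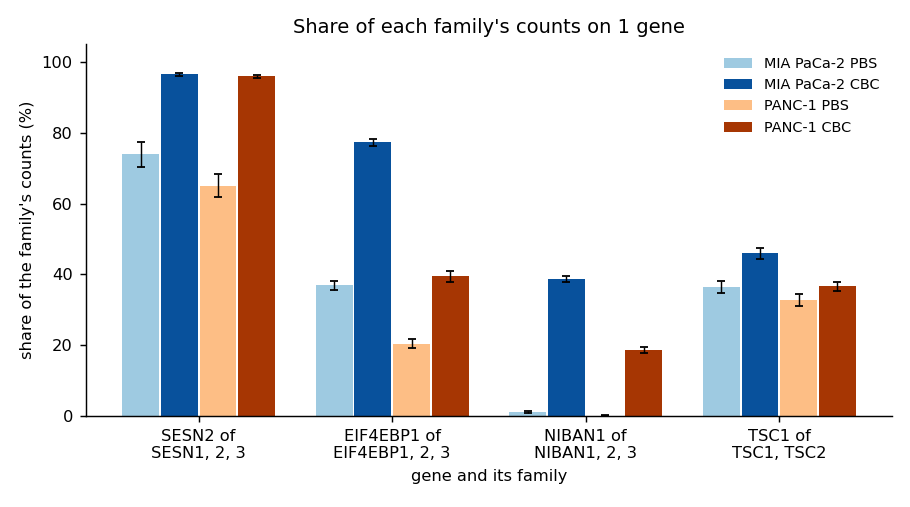
Share of each family's counts that fell on 1 gene, in percent, for SESN2, EIF4EBP1, NIBAN1 and TSC1 in the 4 libraries, with exact 95% binomial intervals that cover counting error only. The SESN2 share reached 96.5% and 96.0% in the CBC libraries, and each of the other shares was also higher with CBC than with PBS of the same line. Counts were not scaled to transcript length.

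DEPTOR (ENSG00000155792, chromosome 8, 119873717 to 120050918, plus strand), the subunit that inhibits mTOR, was read rarely. The counts were 20 (0.899 CPM) and 16 (0.647 CPM) in the MIA PaCa-2 PBS and CBC libraries and 4 (0.176 CPM) and 17 (0.622 CPM) in those of the PANC-1 line. No library reached 1 CPM, and DEPTOR was not tested within a line. The count ratio was 0.719 in the MIA PaCa-2 line (interval 0.349 to 1.46) and 3.54 in the PANC-1 line (1.15 to 14.4), and the latter rests on the 4 counts of 1 library.

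TSC1 (ENSG00000165699, chromosome 9, 132891348 to 132946874, minus strand), which encodes the stabilizing partner of the TSC complex, had 1091 counts (49.1 CPM) with PBS and 2009 counts (81.2 CPM) with CBC in the MIA PaCa-2 line. The PANC-1 libraries were close to these, with 1131 counts (49.7 CPM) and 2165 counts (79.2 CPM). The log2 fold changes of 0.73 (1.54-fold to 1.78-fold) and 0.67 (1.48-fold to 1.71-fold) stayed below the threshold of 1 but exceeded counting error in both lines. TSC2 (ENSG00000103197, chromosome 16, 2047967 to 2089491, plus strand), which encodes the part that acts on RHEB, had 1908 counts (85.8 CPM) and 2366 counts (95.7 CPM) in the MIA PaCa-2 line, a log2 fold change of 0.16 (1.05-fold to 1.18-fold). In the PANC-1 line it had 2319 counts (102 CPM) and 3735 counts (137 CPM), a log2 fold change of 0.42 (1.27-fold to 1.41-fold). The share of TSC1 in the counts on both TSC genes was 36.4% and 45.9% with PBS and CBC in the MIA PaCa-2 line and 32.8% and 36.7% in the PANC-1 line. TSC2 shares 784 exon bases (3.82% of its exons) with PKD1 on the opposite strand. PKD1 had 5637 to 10159 counts, and whether the counting used strand is not given in the sources used here, so that reads of both genes cannot be told apart in this stretch.

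RHEB (ENSG00000106615, chromosome 7, 151466012 to 151520120, minus strand), the activator of mTORC1, was the most even of the 8 members tested in each line. It had 4001 counts (180 CPM) and 4514 counts (182 CPM) in the MIA PaCa-2 line and 3316 counts (146 CPM) and 3916 counts (143 CPM) in the PANC-1 line. The log2 fold changes of 0.02 and -0.03 had intervals of 0.972-fold to 1.06-fold and 0.938-fold to 1.03-fold, which include 1. The processed pseudogenes RHEBP1 and RHEBP2 had at most 14 counts in a library. How reads that fit both RHEB and a pseudogene were counted is not given in the sources used here, so that their number is not known.

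Of the 10 members, 8 were tested in the MIA PaCa-2 line, and 4 of them (SESN2, DDIT4, NIBAN1 and EIF4EBP1) were higher past 2-fold and 0 lower, beside 11.5% of all genes tested higher and 8.97% lower. For the PANC-1 line, 3 of 8 (SESN2, DDIT4 and NIBAN1) were higher and 0 lower, beside 7.71% and 7.03% of all genes. These 3 were past 2-fold in both lines, beside 3.33% of the 12502 genes tested in both that were higher and 2.98% that were lower in each. NIBAN1 entered the PANC-1 count and the joint count through the PANC-1 CBC library alone, and could only be called higher there. SESN3 and DEPTOR were below 1 CPM in all 4 libraries and entered none of these counts. The members were chosen with earlier results of these data known, so that the counts are a description only. The median log2 fold change over the 8 tested members was 0.99 in the MIA PaCa-2 line and 0.74 in the PANC-1 line, beside -0.01 and 0.02 over all genes tested. All 10 members together had 10748 counts with PBS and 39175 with CBC in the MIA PaCa-2 line and 9745 and 32224 in the PANC-1 line. SESN2, DDIT4 and NIBAN1 made up 12.6% of these counts with PBS and 61.6% with CBC in the MIA PaCa-2 line, and 19.03% and 63.0% in the PANC-1 line.

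**Figure D3:**
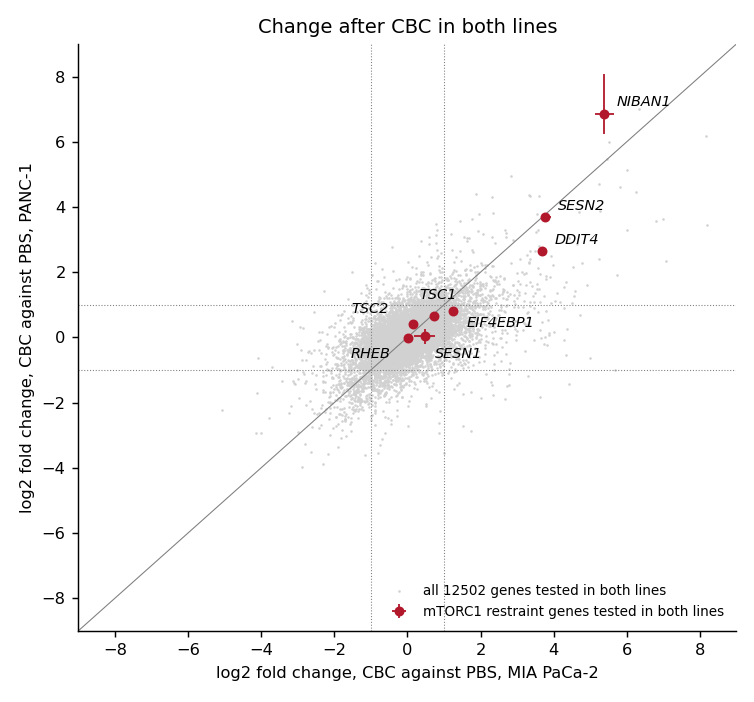
Log2 fold change of CBC against PBS in the MIA PaCa-2 line (x axis) and the PANC-1 line (y axis) for the 8 members tested in both lines, in red with 95% counting intervals, and for all 12502 genes tested in both, in grey. The dotted lines mark log2 fold changes of 1 and -1 and the solid line equal change. NIBAN1 (5.37 and 6.86), SESN2 (3.78 and 3.69) and DDIT4 (3.68 and 2.66) lie apart from most grey points, with DDIT4 below and NIBAN1 above the line of equal change.

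To test the treatment over both lines, each line served as 1 block of a CBC and a PBS library in edgeR's quasi-likelihood test, which leaves 1 residual degree of freedom. The p-values rest on the spread between these libraries, with the variation of each gene drawn towards that of all genes tested. They do not measure the spread between repeated cultures of a line. The SE given is the size of the change over the root of the F statistic. SESN2 rose with a log2 fold change of 3.74 ± 0.22 (SE, adjusted p = 0.00144), NIBAN1 with 5.997 ± 0.41 (adjusted p = 0.00144) and DDIT4 with 3.18 ± 0.29 (adjusted p = 0.00559). EIF4EBP1 rose with 1.05 ± 0.22 (adjusted p = 0.0419), but this call was lost with DESeq2 size factors in edgeR (adjusted p = 0.0569), over a range from 0.000506 to 0.0569 among the alternatives with the block. TSC1 did not pass, at 0.71 ± 0.21 (adjusted p = 0.113), although DESeq2 called it (range of adjusted p 0.0430 to 0.131). The values were 0.30 ± 0.21 for TSC2 (adjusted p = 0.457), 0.26 ± 0.33 for SESN1 (adjusted p = 0.716), 0.48 ± 0.76 for DEPTOR (adjusted p = 0.771) and 0.00 ± 0.19 for RHEB (adjusted p = 0.993). Thus 4 of the 9 members tested were called higher and 0 lower, beside 2.26% and 2.45% of the 16381 genes tested. Without the block no gene of the table was called (0 of 16381, with 354 at an unadjusted p under 0.05).

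The lines were also compared with each other at baseline, in the PBS libraries. NIBAN1 was lower in PANC-1 than in the MIA PaCa-2 line, with a log2 difference of -3.43 and a count ratio of 0.080 (interval 0.0391 to 0.148). EIF4EBP1 was lower by a log2 difference of -1.47 (ratio 0.360, 0.332 to 0.390). These were the 2 members past 2-fold, of 8 tested, with 0 higher, beside 18.0% of all genes lower and 24.0% higher in the PANC-1 line. NIBAN1 was tested here through its MIA PaCa-2 library, and only EIF4EBP1 remained (1 lower) where both libraries had to reach 1 CPM. On the deposited CPM with a pseudocount of 1, the NIBAN1 difference was -2.24. The other log2 differences, PANC-1 minus MIA PaCa-2, were 0.85 for SESN1, 0.72 for DDIT4, 0.27 for SESN2, 0.25 for TSC2, 0.02 for TSC1 and -0.30 for RHEB. Of these, the TSC1 difference lay within counting error and turned to -0.11 with library totals, a scaling that moved the median of all genes in this comparison by -0.13. Over both treatments the edgeR test called the same 2 members lower in the PANC-1 line, NIBAN1 at -2.55 ± 0.36 (adjusted p = 0.00111) and EIF4EBP1 at -1.76 ± 0.23 (adjusted p = 0.000671), of 9 tested with 0 higher, beside 21.7% of all genes lower and 25.1% higher. Among the others the adjusted p ran down to 0.137, for RHEB at -0.39 ± 0.19.

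The response to CBC was not the same in size in both lines for every member. Subtracting the MIA PaCa-2 from the PANC-1 log2 fold change gave 1.495 for NIBAN1, -1.03 for DDIT4, -0.45 for EIF4EBP1, -0.43 for SESN1, 0.27 for TSC2, -0.09 for SESN2, -0.06 for TSC1 and -0.05 for RHEB. With 1 library per condition these differences could not be tested. That of NIBAN1 rests on the 11 counts of the PANC-1 PBS library and fell to 0.32 on the deposited CPM with a pseudocount of 1, where that of DDIT4 was -1.01. The NIBAN1 level with CBC was lower in the PANC-1 line, 65.9 CPM with CBC against 252 CPM in the MIA PaCa-2 line. SESN2 had a large and nearly equal fold in both lines.

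Levels of different genes were compared per kilobase of their canonical transcript. In the MIA PaCa-2 PBS library the order was EIF4EBP1 (120 CPM per kb), RHEB (87.9), DDIT4 (19.5), TSC2 (13.4), SESN2 (5.96), TSC1 (5.71), SESN1 (1.29), NIBAN1 (0.875), DEPTOR (0.350) and SESN3 (0), and only the counting intervals of the neighbours SESN2 and TSC1 overlapped. With CBC the order there was EIF4EBP1 (289 CPM per kb), DDIT4 (252), RHEB (89.2), SESN2 (82.0), NIBAN1 (36.6) and TSC2 (14.9), followed by TSC1, SESN1, DEPTOR and SESN3. DDIT4 thus passed RHEB, and SESN2 came close to it. The PANC-1 PBS library had RHEB (71.3 CPM per kb) before EIF4EBP1 (43.4), DDIT4 (32.2), TSC2 (15.9), SESN2 (7.22), TSC1 (5.78) and SESN1 (2.33), while NIBAN1, DEPTOR and SESN3 (0.070, 0.068 and 0.023) overlapped as neighbours. With CBC the first places in the PANC-1 line were DDIT4 (203 CPM per kb), SESN2 (93.2), EIF4EBP1 (76.2) and RHEB (70.0), and NIBAN1 (9.57) and TSC1 (9.21) overlapped. Per length, DDIT4 and SESN2 were therefore among the 4 highest members in both CBC libraries.

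The surrounding pathway was described through 7 lists with 81 genes, which were chosen with earlier results of these data known. Over both lines the edgeR test called 6 of the 80 genes tested higher and 1 lower with CBC, beside 2.26% of all genes higher and 2.45% lower. DESeq2 called 9 higher and 3 lower, beside 3.58% and 4.43% of all genes. Those called higher were 3 genes of the Rag branch and 3 transcription factors. The other 5 lists gave no call in edgeR. At an unadjusted p under 0.05 were 23 of the 80 listed genes in edgeR, beside 3428 of all 16381 genes tested. In DESeq2 there were 23, beside 2707 of all genes. The counts at an unadjusted p given below for single lists stand beside these.

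Of the 12 genes for Rag GTPases, Ragulator and folliculin, 3 were called higher and 0 lower by edgeR, beside 2.26% and 2.45% of all genes, and DESeq2 called the same 3. RRAGC, a Rag GTPase that pairs with RRAGA or RRAGB, went from 307 to 1027 counts in the MIA PaCa-2 line and from 579 to 1882 in the PANC-1 line (log2 fold change over both lines 1.52 ± 0.24, adjusted p = 0.0188). FLCN, folliculin, the GTPase-activating protein of RRAGC and RRAGD, went from 814 to 2396 and from 701 to 1713 counts (1.22 ± 0.23, adjusted p = 0.0309). RRAGD went from 625 to 1737 and from 159 to 377 counts (1.16 ± 0.26, adjusted p = 0.0479), and this call was lost with DESeq2 size factors in edgeR and with TMM factors over all genes. The other 9 genes of the list, the Ragulator subunits LAMTOR1 to LAMTOR5 among them, were not called, and the median of the list was 0.31 beside 0.02 over all genes tested.

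The 16 genes for amino acid sensing to GATOR, through which sestrins signal, gave 0 calls in edgeR, with 3 at an unadjusted p under 0.05, and 1 call in DESeq2. SLC38A9, the lysosomal arginine sensor, had 324 and 712 counts in the MIA PaCa-2 line and 575 and 1156 in the PANC-1 line (0.87 ± 0.26, adjusted p = 0.106). NPRL2, a subunit of the GATOR complex that restrains the Rag GTPases, had log2 fold changes of 0.85 in the MIA PaCa-2 line and -0.18 in the PANC-1 line. The median of this list was 0.18.

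Energy and growth factor inputs to the TSC complex gave 0 calls of 14 in edgeR, with 4 at an unadjusted p under 0.05 and a median of 0.04, and 1 call in DESeq2. PRKAB2 and PRKAB1, the regulatory beta subunits of AMPK, had values of 1.04 ± 0.30 (adjusted p = 0.100) and 0.72 ± 0.26 (adjusted p = 0.162), and PRKAB2 was past 2-fold in the PANC-1 line alone (488 to 1617 counts, against 221 to 368 in the MIA PaCa-2 line). AKT1, the kinase that phosphorylates TSC2, had a value of -0.61 ± 0.19 (adjusted p = 0.115 in edgeR) and was the gene that DESeq2 called (-0.63, adjusted p = 0.0225). The mTOR complex subunits gave 0 calls of 9 tested in edgeR and in DESeq2 (0 and 1 at an unadjusted p under 0.05), with a median of -0.02 and MTOR itself at -0.02 ± 0.19. Their genes named by the rule of size were MAPKAP1 at -0.10 ± 0.32, TTI1 at -0.51 ± 0.22 and TELO2 at -0.30 ± 0.21. MTOR is given outside that rule and was chosen after its value was seen.

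The 13 mTORC1 outputs gave 0 calls in edgeR, with 5 at an unadjusted p under 0.05 and a median of -0.13, whereas DESeq2 called EIF4EBP2 lower (-0.92, adjusted p = 0.0314) and ULK1 higher (0.73, adjusted p = 0.0428). In edgeR EIF4EBP2, the second 4E-BP, had a value of -0.90 ± 0.24 (adjusted p = 0.0808) and the cap-binding factor EIF4E, which 4E-BPs hold, one of -0.82 ± 0.25 (adjusted p = 0.114), and both were lower past 2-fold in the MIA PaCa-2 line (log2 fold changes of -1.28 and -1.17, against -0.53 and -0.49 in the PANC-1 line). ULK1, the autophagy kinase that mTORC1 inhibits, had 1158 and 1866 counts in the MIA PaCa-2 line and 2079 and 4782 in the PANC-1 line (0.74 ± 0.21, adjusted p = 0.100 in edgeR). The 4 paralogs of members gave 0 calls in both tools (1 at an unadjusted p under 0.05 in edgeR and 0 in DESeq2), with a median of 0.94, although DDIT4L and NIBAN3 had at most 4 counts in either PANC-1 library. NIBAN2, the most read of them, had 10991 and 9848 counts in the MIA PaCa-2 line and 5493 and 7807 in the PANC-1 line, log2 fold changes of -0.31 and 0.24, unlike NIBAN1.

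Of 12 transcription factors known from earlier work to act on sestrin or DDIT4 genes, 3 were called higher and 1 lower by edgeR, beside 2.26% and 2.45% of all genes, with a median of 0.46. This list, too, was chosen with earlier results of these data known, so that its counts are a description only. DDIT3 (CHOP) had 192 and 4615 counts in the MIA PaCa-2 line and 532 and 5353 in the PANC-1 line (3.74 ± 0.36, adjusted p = 0.00597), and CEBPB went from 672 to 7623 and from 574 to 3663 counts (2.89 ± 0.29, adjusted p = 0.00620). ATF4, the central factor of the integrated stress response, went from 4593 to 15183 and from 5529 to 12810 counts (1.27 ± 0.22, adjusted p = 0.0229). TP73, a transcription factor named here after its value was seen, fell from 175 to 66 and from 191 to 36 counts (-2.09 ± 0.46, adjusted p = 0.0473), a call lost with 3 other scalings. Likewise given after their values were seen, NFE2L2 had a value of 0.47 ± 0.20 (adjusted p = 0.235) and HIF1A of -0.19 ± 0.20 (adjusted p = 0.644).

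**Figure D4:**
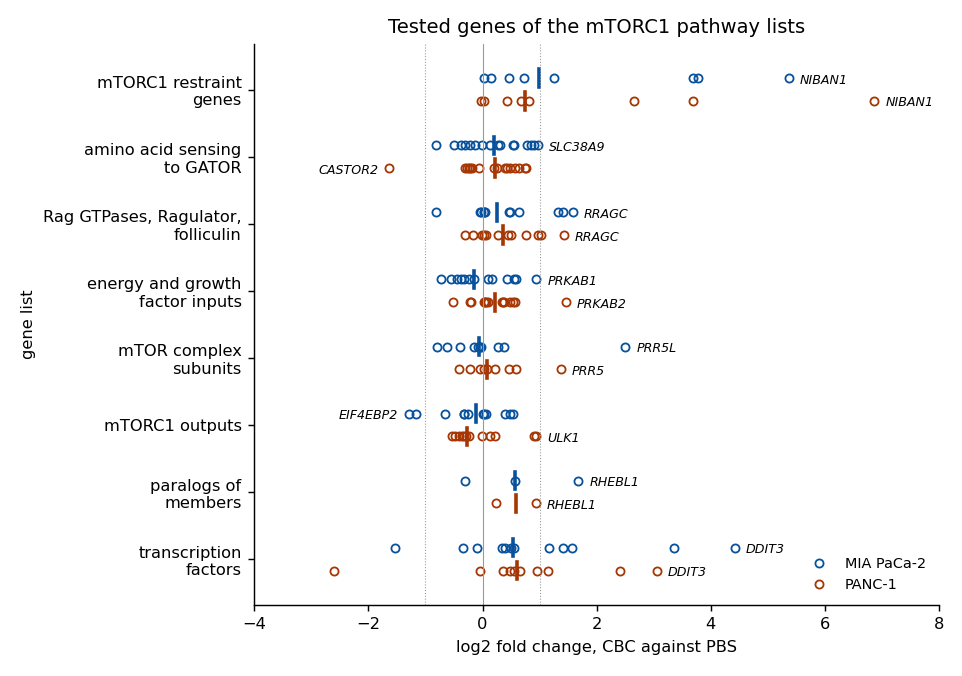
Log2 fold change of CBC against PBS for the tested genes of the members and of the 7 pathway lists, the MIA PaCa-2 line in blue and the PANC-1 line in brown. Each circle is 1 gene, the thick tick is the median of the list and the dotted lines mark log2 fold changes of 1 and -1. NIBAN1 (5.37 and 6.86) is the highest circle of the members, RRAGC (1.58 and 1.43) of the Rag branch and DDIT3 (4.42 and 3.06) of the transcription factors.

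Within the lines, 10 of the 78 listed genes tested in the MIA PaCa-2 line were higher past 2-fold and 3 lower, beside 11.5% and 8.97% of all genes. For the PANC-1 line, 7 of 75 were higher and 2 lower, beside 7.71% and 7.03%. The shares of listed genes higher were thus near those of all genes. Past 2-fold in both lines were 4 higher (RRAGC, FLCN, DDIT3 and CEBPB) and 1 lower (TP73) of 74, beside 3.33% and 2.98%. At baseline, 12 of 78 were higher and 12 lower in the PANC-1 line, and the edgeR test over both treatments called 20 of 80 higher and 16 lower. These baseline shares lie near or below those of all genes given above.

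The genes whose levels over the 4 libraries were most like those of the leading members were searched by the distance between log2 CPM profiles centred on their mean. Of the 10068 genes that averaged 10 CPM or more, the members and any genes without a symbol were left out of the search. For SESN2 the nearest was TRIB3, a pseudokinase (distance 0.33, 582, 7775, 733 and 8594 counts in the order MIA PaCa-2 PBS, MIA PaCa-2 CBC, PANC-1 PBS and PANC-1 CBC), followed by DDIT3 (0.82). CHAC1, a glutathione-degrading enzyme, was nearest to DDIT4 (0.42, with 135, 1556, 262 and 1977 counts in that order), followed by TRIB3 (0.45). NIBAN1 had no close neighbour, the nearest being HKDC1 (2.45, with 123, 1414, 6 and 188 counts) and KCP (2.45, with 4, 1855, 3 and 424 counts). The distance is in log2 units over 4 libraries and describes these libraries only.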

How the data were processed

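RNA of 4 samples, 1 library per condition, was analysed. Per the methods, poly(A) RNA was selected, directional libraries were sequenced, and the reads were trimmed (cutadapt 2.7), mapped to GRCh38 (STAR) and assigned to Ensembl genes (HTSeq). The authors deposited the resulting raw counts, unfiltered, and beside them a signal for each library that equals the counts on TMM-scaled library sizes (largest relative difference 6.84e-09). Whether the counting used strand is not given in the sources used here.

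All values were computed from the counts. A symbol was found for 57392 of 58233 identifiers. Positions and canonical transcript lengths are those of GENCODE release 44 on GRCh38. Groups were taken from the sample labels. Within a line, log2 fold changes were computed with edgeR 4.0.16 (R 4.3.3, TMM factors of all 4 libraries, prior count 2) where at least 1 library of the pair reached 1 CPM, and were called above 1 or below -1. With 1 library per group, no test was made within a line. Intervals are exact 95% ones (scipy 1.17.1) and cover counting error only. For both lines together, edgeR's quasi-likelihood test was run on the 16381 genes kept by filterByExpr, with TMM factors over these genes, cell line as a block and Benjamini-Hochberg adjustment. Each cell line pairs its own libraries, whose deviations from the treatment means correlated across genes at 0.923. Biological variation had a common coefficient of 23.0%. The test was first run on simulated data with known changes that were equal in both lines. Responses that differ between the lines were not simulated.

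The members and the pathway lists were chosen with earlier results of these data known. Named from each list were up to 3 genes with the largest mean absolute log2 fold change of both lines and an average of 10 CPM or more, and for members past 2-fold in both lines the 2 genes nearest in profile. Alternatives changed the scaling (TMM over the 2 libraries compared, DESeq2 1.42.0 size factors, library totals, TMM factors over all genes), the prior count, the filter, the threshold, the values, the block and the tool. Some genes of the pathway lists are counted with their list but not reported here by name.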

Additional observations from a re-analysis of the deposited data

Results flagged for a closer look

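MAPKAP1, a subunit of the second mTOR complex, moved in opposite directions in the lines, with 2950 and 1881 counts under PBS and CBC in the MIA PaCa-2 line (log2 fold change -0.80) and 2650 and 4772 counts in the PANC-1 line (0.58), and the difference between these changes, 1.39, was not tested. NIBAN2, a paralog of NIBAN1, did so as well, with log2 fold changes of -0.31 and 0.24, and their difference of 0.55 was not tested either.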

How the results depend on the processing

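Of 144 counts of members or listed genes recomputed under an alternative, 128 stayed within 1.5 times the reported count. Within PANC-1 cells, listed genes higher past 2-fold numbered 4 in place of 7 when the whole counting interval had to pass it. At baseline, members higher numbered 1 in place of 0 without a filter. That member was SESN3, with 0 counts in the MIA PaCa-2 PBS library and 5 in the PANC-1 PBS library. Members lower numbered 1 in place of 2 where both libraries had to reach 1 CPM, and listed genes lower 6 in place of 12 by the counting interval. Without the replicate block, the test of CBC against PBS called 0 members and 0 listed genes higher and 0 listed genes lower, and the test of the lines called 0 members lower, 5 listed genes higher and 6 lower. Listed genes called higher with CBC were 12 without a filter, and those called lower were 3 with DESeq2, 4 without a filter, and 0 with DESeq2 size factors in edgeR, with library totals and with TMM factors over all genes, an alternative chosen after seeing the data. Changes of sign were limited to values near 0. RHEB over both lines came to -0.0123 with DESeq2 and with its size factors in edgeR and to -0.00233 without a filter and with TMM factors over all genes, and NIBAN2 came to 0.0319 with library totals. In the test of the lines, DDIT4 came to -0.28 and EIF4EBP2 to -0.0728 without the replicate block, and EIF4EBP2 to -0.0366 with library totals. The causes were not tested. Over all genes, 771 were called for CBC, against 1311 with DESeq2, 567 with its size factors in edgeR, 730 with library totals, 2063 without a filter, 659 with TMM factors over all genes and 0 without the block, and the lines gave 7652 and, without the block, 4251. Without a filter, genes past 2-fold numbered 3249 higher and 2567 lower in MIA PaCa-2 cells (1608 and 1256 as reported), 2537 and 2310 in PANC-1 cells (1087 and 991), and 5714 and 5164 at baseline (3548 and 2659). By the counting interval they numbered 1003 and 716 in MIA PaCa-2 cells and 557 and 630 in PANC-1 cells. Where both libraries had to reach 1 CPM, 1039 were higher in MIA PaCa-2 cells, and 2066 higher and 1528 lower at baseline. On the deposited values with a pseudocount of 1, 680 were higher in PANC-1 cells. Depth limits SESN3 and DEPTOR, below 1 CPM in every library, and NIBAN1 in the PANC-1 PBS library, with 11 counts.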
